A study of Mus musculus with 6 samples.

Results

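Effector Tregs are regulatory T cells that have met antigen, left the resting state and acquired a program of suppressive and tissue-homing genes. The 9 transcription factors described here (Prdm1, Irf4, Batf, Nfil3, Bhlhe40, Id2, Myb, Ikzf3 and Zeb2) were taken by name, from their known roles in effector Tregs, out of the 36930 features of an RNA-Seq study of Tregs from the bone marrow (BM). The choice was made with earlier results of these data known, so counts of members set beside shares of all features are descriptions only. All 9 were present and all 9 had a mean of at least 1 RPKM (reads scaled by transcript length and by the mapped reads of the library, the unit read from the values and the software, since the tables do not name it), the limit for testing, which 13923 features met. Each member had reads in all 6 libraries.

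The study sorted Tregs by FACS from the BM of mice with chronic myeloid leukemia (CML, 3 libraries) and from naive mice without leukemia (3 libraries). All mice carried the Foxp3-DTR-GFP allele, in which the Foxp3 locus drives the diphtheria toxin receptor and GFP, so that the Tregs of both groups were GFP-labeled. CML was induced by injecting Lin-Sca-1+c-kit+ marrow cells, transduced with a BCR-ABL1-GFP retrovirus, into recipients that were not irradiated, and the leukemic cells therefore also carried GFP. The mice were in postnatal week 8 according to the labels, while naive mice received no cells. Tregs were taken on day 15 of leukemia according to the heading of the supplementary gene list of the study. The replicates are described as mice in the study, and each library was taken as a replicate, although the labels do not name the animal behind it.

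In these cells the factors work in layers. Irf4 and Batf act early after T cell receptor stimulation and bind DNA together at joined AP-1 and interferon regulatory factor elements. Prdm1 encodes Blimp-1, a zinc finger repressor that marks terminally differentiated effector Tregs and supports Il10 expression, while Bhlhe40, a basic helix-loop-helix repressor, is known to restrain Il10 in T cells. Id2 lacks a DNA-binding region and holds E proteins inactive. Nfil3 is a basic leucine zipper repressor, Myb and Ikzf3 (Aiolos) are lymphoid regulators, and Zeb2 is a zinc finger repressor that acts in differentiated T cells and in plasmacytoid dendritic cells.

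The sequence before a RefSeq start of Prdm1 is shown because it was the member with the smallest p-value and held recognition letters of other members. It comes from RefSeq on build GRCm38.p6 (chr10:44458749-44458998, minus strand), covers 250 bases before that start, lies within the span of the gene (44437177 to 44528501) and not at its outer end, overlaps no annotated exon, and has a GC content of 59.2% against a median of 52.4% over all 32851 promoter windows. Capitals mark TGANTCA, the AP-1 core that Batf dimers bind, which begins 48 bases before the start, and CACCTG (here on the opposite strand), an E-box bound by Zeb proteins, which begins 87 bases before it.
Prdm1: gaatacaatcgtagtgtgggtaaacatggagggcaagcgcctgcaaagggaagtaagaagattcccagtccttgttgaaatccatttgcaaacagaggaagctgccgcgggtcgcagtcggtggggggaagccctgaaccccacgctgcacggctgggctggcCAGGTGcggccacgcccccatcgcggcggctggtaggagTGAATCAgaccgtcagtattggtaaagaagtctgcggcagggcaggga
Windows of 7 members were matched (Bhlhe40 and Ikzf3 were not), and both strands were searched. TGANTCA occurred in Prdm1 and Zeb2 and in 6.75% of all promoters, and CACCTG in Prdm1 and in 17.2%. The matches of Zeb2 lay in its window chr2:45110278-45110527, which overlaps annotated exons of Zeb2. The interferon regulatory factor element (a pair of GAAA repeats) is in 2.98% of all promoters, TTACGTAA, the element of Nfil3, in 0.113% and CACGTG, that of Bhlhe40, in 6.02%, and none of these was in the windows of the members. TGGGAA, an Ikaros family core, was in the windows of Prdm1 and Batf and in 21.6% of all, and AACNG, a Myb core, in those of 6 members and in 74.2% of all. A match is a description of letters and was not tested as a binding site.

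The libraries differed in depth. From the smallest steps of the values, an estimated 829181 reads lay behind CML library 2, 2286190 behind CML library 3 and 5187987 to 9751911 behind the other 4. CML library 2 also stood apart by composition, with 50.7% of its summed RPKM in 10 features against 28.5% to 31.3% elsewhere, and results are therefore also given without it. Within it the members rested on an estimated 33 reads (Batf) to 611 reads (Ikzf3). The targets of the sort were present in all libraries: Foxp3, the lineage factor of Tregs, was measured at 468, 299 and 427 RPKM in CML libraries 1 to 3 and at 297, 367 and 349 RPKM in naive libraries 1 to 3, and the 12 Treg and T cell genes summed to 2705 to 3691 RPKM in CML and 2815 to 3113 RPKM in naive libraries.

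The comparison of CML with naive Tregs asks whether regulators of effector differentiation are expressed at other levels in the leukemic BM. None of the 9 members passed an adjusted p of 0.05 with a fold of at least 1.5 in limma, a rule that 0.172% of all features passed. With p under 0.05 before adjustment and that fold (the unadjusted rule), 3 members (Prdm1, Nfil3 and Bhlhe40) were higher in CML, against 2.61% of all features. In 4 members (Prdm1, Batf, Bhlhe40 and Ikzf3) every CML library lay above every naive library, against 4.84% of all features. In no member did every CML library lie below every naive library, against 12.2% of all features. The log2 fold change was positive for 8 of 9 members with a median of 0.81, while the median of all features was -0.18 and 35.7% of them had a positive value. Without CML library 2 the median of the members was 1.15 and 5 members met the unadjusted rule, against 4.86% of all features, without CML library 3 the median was 0.45, and without naive library 1 the groups did not overlap for 7 members, against 7.34% of all features. In sorted bulk samples, a larger share of effector cells and more RNA per cell cannot be told apart.

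**Figure D1:**
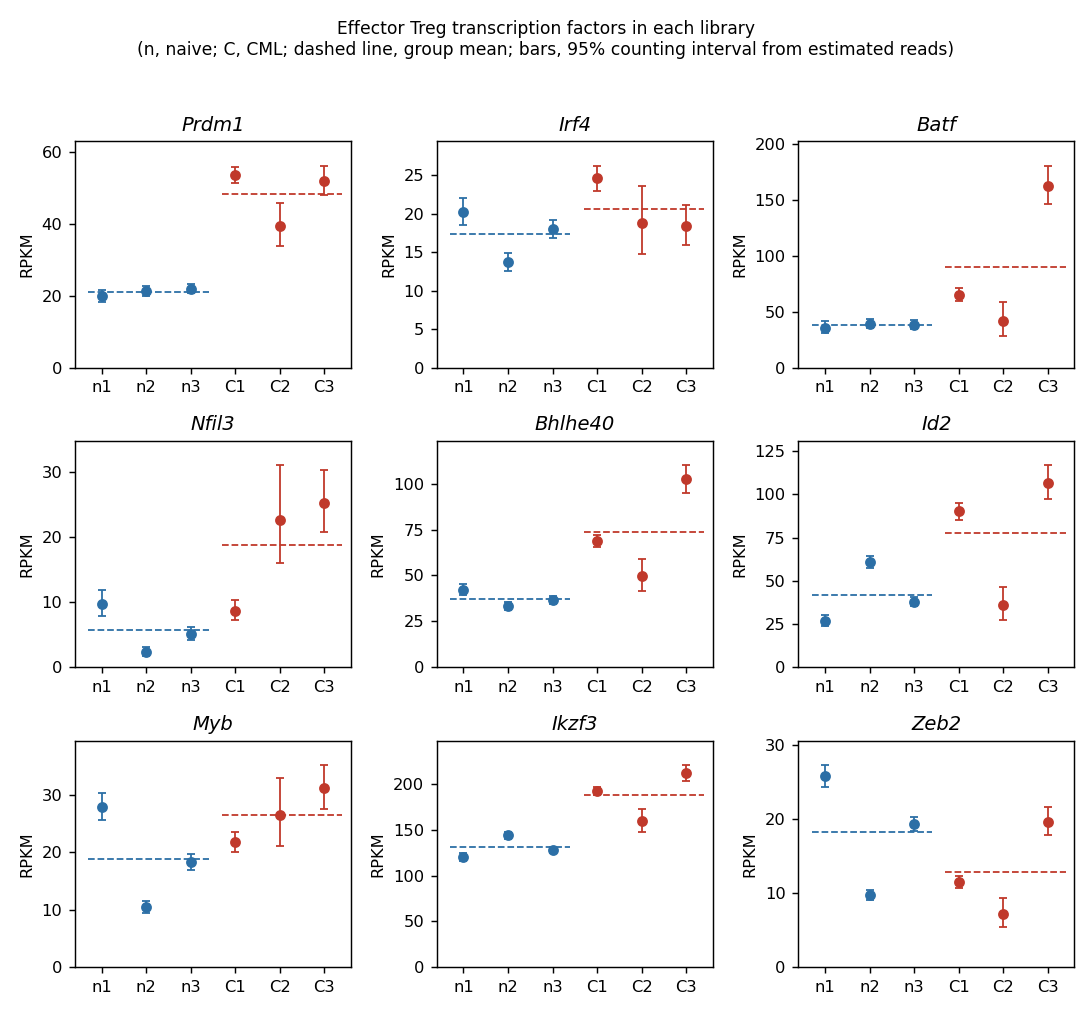
RPKM of the 9 members (linear vertical axes from 0) in naive libraries n1 to n3 and CML libraries C1 to C3. Points are libraries, dashed lines are group means and bars are 95% counting intervals from estimated reads. Prdm1, Batf, Bhlhe40 and Ikzf3 have all CML points above all naive points, and the bar of CML library 2 is the widest in most panels.

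Prdm1 (chromosome 10, 44437177 to 44528501, minus strand, GRCm38) was the member with the most even levels within groups relative to its difference. It was measured at 53.5, 39.4 and 51.9 RPKM in CML libraries 1 to 3 and at 19.9, 21.3 and 21.9 RPKM in naive libraries 1 to 3. The groups did not overlap, and even the lowest CML library lay above the highest naive library by more than their counting intervals (33.7 RPKM is the lower bound in CML library 2). The means were 48.3 ± 7.71 RPKM in CML and 21.0 ± 1.05 RPKM in naive Tregs (SD, n = 3), a log2 fold change of 1.15 (SE 0.21, 95% interval 0.66 to 1.64). The p of limma was 0.000699, the rank 74 of 13923 features, and the adjusted p 0.131. The adjusted p depended on the settings of the fit: over 17 others the log2 fold change ranged from 1.07 to 1.29 and the adjusted p from 0.0458 (library weights) to 0.494 (without naive library 2), and 4 settings placed it under 0.05. These were a common 75th percentile (0.0479), quantile normalization (0.0483), a common sum without the highest features (0.0471) and library weights (0.0458). The other scalings also shifted the median of all features, from -0.18 to as much as -0.0068 under quantile normalization.

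Irf4 and Batf, the partners that bind DNA together, differed from each other in pattern. Irf4 (chromosome 13, 30749226 to 30766976, plus strand) was measured at 24.6, 18.7 and 18.4 RPKM in CML and at 20.2, 13.7 and 18.0 RPKM in naive libraries. The groups overlapped, with means of 20.6 ± 3.45 and 17.3 ± 3.34 RPKM (SD, n = 3), and the log2 fold change of 0.24 had a 95% interval from -0.38 to 0.87 (adjusted p = 0.772, limma). Batf (chromosome 12, 85686669 to 85709087, plus strand) was measured at 65.0, 41.5 and 163 RPKM in CML and at 35.7, 39.2 and 38.5 RPKM in naive libraries. The naive libraries were the most even of all members, with a coefficient of variation of 4.93%, whereas the CML libraries spanned 3.93-fold. Batf had a log2 fold change of 0.99 (SE 0.44, adjusted p = 0.526, limma), which was 1.42 without CML library 2, where it met the unadjusted rule, and 0.45 without CML library 3. In CML library 2 it rested on an estimated 33 reads, and its counting interval of 28.5 to 58.3 RPKM covered all 3 naive values.

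Bhlhe40 (chromosome 6, 108660629 to 108666925, plus strand) was measured at 68.8, 49.8 and 102 RPKM in CML and at 42.3, 33.5 and 36.3 RPKM in naive libraries. The groups did not overlap, with means of 73.6 ± 26.6 and 37.4 ± 4.48 RPKM (SD, n = 3) and a log2 fold change of 0.90 (SE 0.28, unadjusted p 0.0114, adjusted p = 0.346, limma). In CML library 2 the counting interval overlapped that of the highest naive library. Like Prdm1, it met the unadjusted rule in all leave-one-out fits, with log2 fold changes from 0.64 to 1.15. An antisense gene, 0610040F04Rik, overlaps its exons.

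Nfil3 (chromosome 13, 52967209 to 52981073, minus strand) had the largest log2 fold change of the members, 1.60 (SE 0.56, 95% interval 0.29 to 2.91), and was the least even member within the naive group. It was measured at 8.70, 22.6 and 25.2 RPKM in CML and at 9.71, 2.30 and 5.09 RPKM in naive libraries. CML libraries 2 and 3 were high, while CML library 1 lay below naive library 1, so that the groups overlapped. The adjusted p was 0.426 (limma). Without naive library 2, naive library 3, CML library 2 or CML library 3 it no longer met the unadjusted rule, and its log2 fold change ranged from 1.17 to 2.05 over the leave-one-out fits. In CML library 2 it rested on an estimated 38 reads (16.0 to 31.0 RPKM).

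Ikzf3 (chromosome 11, 98464902 to 98546031, minus strand) was the most abundant member in both groups. It was measured at 193, 160 and 212 RPKM in CML and at 120, 144 and 128 RPKM in naive libraries, and the groups did not overlap. The means of 188 ± 26.4 and 131 ± 12.2 RPKM (SD, n = 3) gave a log2 fold change of 0.51 (SE 0.17, unadjusted p 0.0147, adjusted p = 0.370, limma), which is under the fold of 1.5. It passed that fold, and the unadjusted rule, without CML library 2 (0.63) and without naive library 2 (0.59).

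Id2 (chromosome 12, 25093799 to 25097140, minus strand) was measured at 90.2, 35.7 and 107 RPKM in CML and at 26.7, 60.8 and 37.98 RPKM in naive libraries. CML libraries 1 and 3 lay above all naive libraries and CML library 2 below naive libraries 2 and 3. The log2 fold change was 0.81 (SE 0.45, adjusted p = 0.595, limma), and it was 1.29 without CML library 2, where it met the unadjusted rule, 0.51 without CML library 3 and 0.54 without naive library 1. Myb (chromosome 10, 21124935 to 21160984, minus strand) was measured at 21.8, 26.6 and 31.2 RPKM in CML and at 27.9, 10.4 and 18.3 RPKM in naive libraries. Naive library 1 lay within the CML range, and the log2 fold change of 0.56 had a 95% interval from -0.29 to 1.41 (adjusted p = 0.646, limma). Without naive library 1 it was 0.88 and met the unadjusted rule, and without naive library 2 it was 0.21.

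Zeb2 (chromosome 2, 44983632 to 45117395, minus strand) was the only member with a lower mean in CML. It was measured at 11.5, 7.19 and 19.7 RPKM in CML and at 25.8, 9.75 and 19.3 RPKM in naive libraries. The ranges overlapped, and the log2 fold change of -0.49 had a 95% interval from -1.57 to 0.59 (adjusted p = 0.734, limma). Its antisense gene Zeb2os overlaps its exons, as Gm26577 does for Myb, and in libraries without strand the reads of such pairs cannot be told apart.

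**Figure D2:**
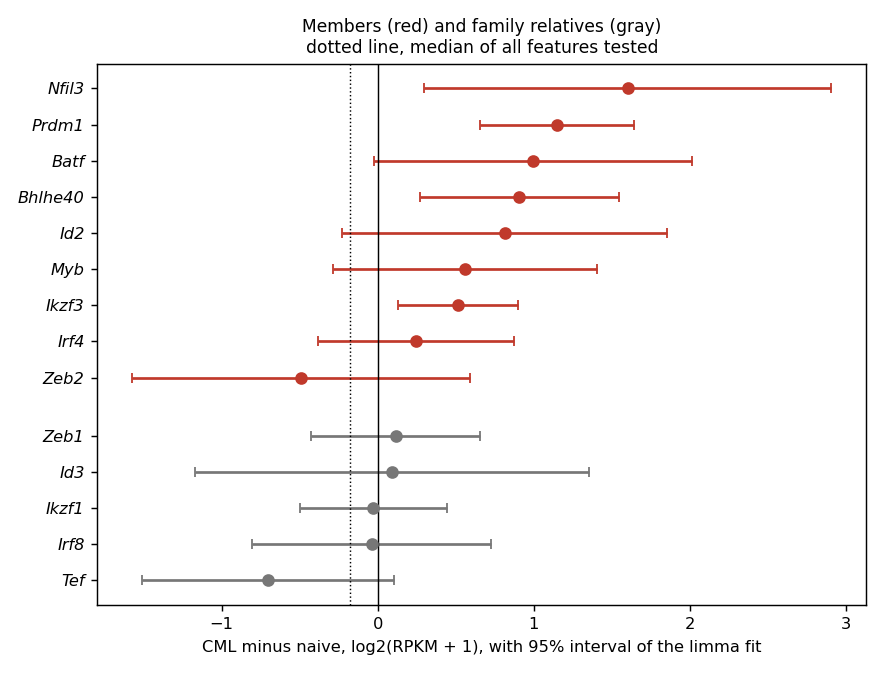
CML minus naive difference in log2(RPKM + 1) of the 9 members (red) and 5 tested family relatives (gray), with points for the limma estimate and bars for its 95% interval. The solid line is 0 and the dotted line the median of all features (-0.18). The intervals of Nfil3, Prdm1, Bhlhe40 and Ikzf3 lie above 0, and those of all 5 relatives include 0.

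Across the members, levels followed a similar order in both groups. In naive Tregs the order of mean RPKM was Ikzf3, Id2, Batf, Bhlhe40, Prdm1, Myb, Zeb2, Irf4 and Nfil3, and only the ranges of Ikzf3 and Id2, of Bhlhe40 and Prdm1 and of Irf4 and Nfil3 lay apart among neighbors. In CML Tregs it was Ikzf3, Batf, Id2, Bhlhe40, Prdm1, Myb, Irf4, Nfil3 and Zeb2, and among neighbors only Prdm1 and Myb lay apart. Within CML, library 3 held the highest value of 7 members and library 2 the lowest of 6. Within the naive group, coefficients of variation ranged from 4.93% (Batf) to 65.7% (Nfil3).

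Family relatives were set against the members to ask whether whole families differed, and none of the 5 that could be tested passed the adjusted p or met the unadjusted rule. Irf8, the interferon regulatory factor of myeloid and plasmacytoid cells, had means of 268 RPKM in CML and 293 RPKM in naive libraries (-0.04 as log2 fold change). Ikzf1 (Ikaros) was measured at 119.9 and 120.1 RPKM (-0.03), Id3 at 16.2 and 16.9 RPKM (0.09) and Zeb1 at 25.6 and 23.8 RPKM (0.11). Tef, a leucine zipper activator that binds the same element as Nfil3, was measured at 14.97, 12.3 and 6.65 RPKM in CML and at 17.2, 20.5 and 16.9 RPKM in naive libraries. Every CML library lay below every naive library for Tef, with a log2 fold change of -0.70 (adjusted p = 0.566, limma). Batf3 was listed at 0 in all 6 libraries, Bhlhe41 did not exceed 0.196 RPKM, and Mybl1 was listed at 0 in the CML libraries and at 1.56, 0.298 and 1.24 RPKM in the naive libraries, where 3 reads in CML library 2 would amount to 0.727 RPKM.

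The ratio of member to relative within a library removes most differences in scaling between libraries. The log2 ratio of Ikzf3 to Ikzf1 was 0.87, 0.68 and 0.45 in CML and -0.09, 0.21 and 0.24 in naive libraries, a difference of 0.54 without overlap. That of Nfil3 to Tef was -0.72, 0.82 and 1.78 in CML and -0.76, -2.71 and -1.56 in naive libraries, a difference of 2.30 that rests on a gap of less than 0.1 between CML library 1 and naive library 1. Both gave a p of 0.1 in the 2-sided exact permutation test, the smallest that 3 against 3 libraries allow, and 0.2 after Benjamini-Hochberg adjustment over 6 pairs. The ratio of Myb to Mybl1 had the same p, but its size was set by the pseudocount, since Mybl1 was listed at 0 in CML: the difference was 1.52 with a pseudocount of 1 and 3.85 with 0.1. Irf4 to Irf8 (0.28), Id2 to Id3 (0.72) and Zeb2 to Zeb1 (-0.60) overlapped between groups, each with an exact permutation p of 0.5. With each library left out in turn they ranged from 0.06 to 0.48, from 0.08 to 1.63 and from -1.004 to -0.18, and each was nearest to 0 without naive library 1.

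**Figure D3:**
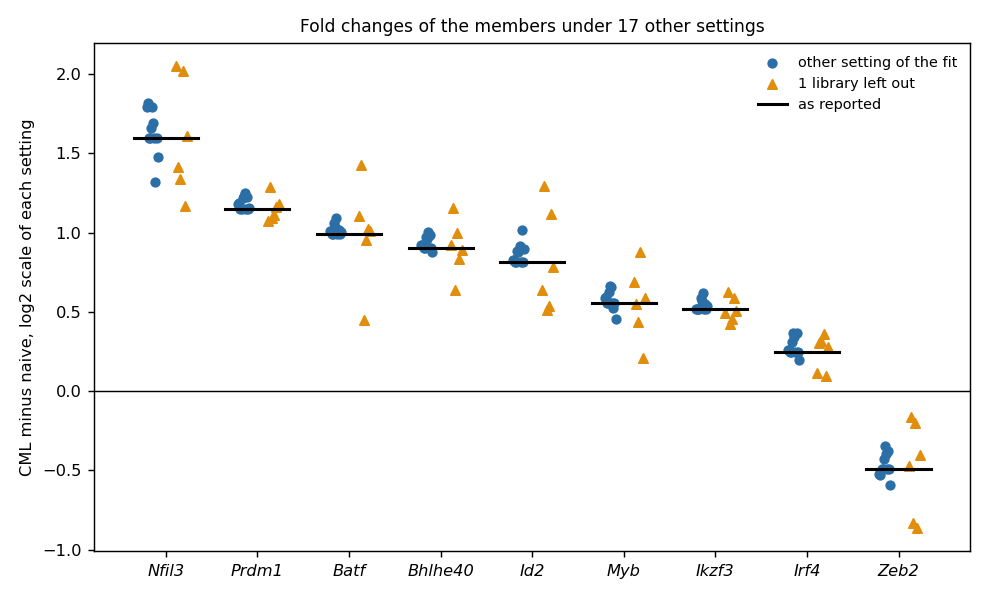
CML minus naive difference of each member on the log2 scale (vertical axis) as reported (black line), under 11 other settings of the fit (blue circles) and with each of the 6 libraries left out in turn (orange triangles). No member crosses 0 under any of these, and Prdm1 stays between 1.07 and 1.29.

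Genes beside which these factors are usually read were counted in 4 lists, also chosen with earlier results of these data known. Their counts beside the shares of all features are therefore descriptions only. Of 32 effector Treg gene products, 18 had all CML libraries above all naive libraries, against 4.84% of all features, and 1 below, against 12.2%. The unadjusted rule was met upward by 15, against 2.61%, and downward by none, against 5.94%. The list holds Tnfrsf1b, Tigit, Tnfrsf4, Tnfrsf8 and Tnfrsf9, which the study had named from these same data as upregulated. These genes lay above without overlap, so the counts are in part of genes selected in these data. The median log2 fold change of the list was 0.61, and 3 genes passed the adjusted p, against 0.172% of all features. The 3 were Tnfrsf9 (4-1BB, a costimulatory receptor), at 167 ± 27.3 RPKM in CML and 36.8 ± 8.17 RPKM in naive Tregs (SD, n = 3, adjusted p = 0.0194, limma), and, named after their values were seen, the inhibitory receptor Tigit at 328 and 96.3 RPKM (adjusted p = 0.0350, limma) and the chemokine receptor Ccr8 at 39.4 and 8.60 RPKM (adjusted p = 0.0416, limma). These calls did not hold throughout: of 17 other settings Tnfrsf9 passed in 8, Tigit in 7 and Ccr8 in 6, and of the 6 fits with a library left out, Tnfrsf9 and Tigit passed without CML library 2 and in no other, and Ccr8 in none. The largest log2 fold changes without overlap were those of the cytotoxic protease Gzmb, 3.10 (adjusted p = 0.0729, limma), the receptor Tnfrsf8 (CD30), 2.68 (adjusted p = 0.256), and Havcr2 (Tim-3), 2.35 (adjusted p = 0.290). Il10, which Blimp-1 and Bhlhe40 are known to regulate in opposite directions, was measured at 19.9 ± 13.4 RPKM in CML and 5.43 ± 1.41 RPKM in naive Tregs (SD, n = 3), with overlapping libraries, and is named here for that role.

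Of 12 transcription factors of resting T cells, none lay above and 8 lay below in all CML libraries, against 12.2% of all features, and 5 met the unadjusted rule downward, against 5.94%. Their median log2 fold change was -0.93, and -0.56 without CML library 2, and 2 of them passed the adjusted p, against 0.172% of all features. Tcf7, which encodes TCF-1, fell from 320 ± 122 RPKM in naive to 76.3 ± 8.31 RPKM in CML Tregs (SD, n = 3, log2 fold change -1.99, adjusted p = 0.0445, limma). Klf2, the factor that maintains the recirculation receptor S1pr1, fell from 292 ± 53.3 to 96.7 ± 17.2 RPKM (log2 fold change -1.58, adjusted p = 0.0416, limma). Klf3 (-1.29, adjusted p = 0.131) and Bach2 (-1.09, adjusted p = 0.546), a repressor of Prdm1, lay lower without passing. Of 10 resting T cell surface genes, 6 lay below in all CML libraries, against 12.2% of all features, and 6 met the unadjusted rule downward, against 5.94%. Only S1pr1 passed the adjusted p, against 0.172% of all features, at 30.6 RPKM in CML and 112 RPKM in naive libraries (log2 fold change -1.82, adjusted p = 0.0356, limma). Klf2 and S1pr1 passed in 6 and Tcf7 in 3 of the 17 other settings, and none of them passed when any library was left out, with log2 fold changes over all settings from -1.74 to -1.48, from -2.001 to -1.67 and from -2.23 to -1.70. Ccr7, the lymph node homing receptor, was measured at 2.83 and 15.6 RPKM (-2.10, adjusted p = 0.238, limma), and Nsg2 and Igfbp4 were at 0 in CML libraries 2 and 3.

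Of 34 other transcription factors of Tregs, 6 lay above and 1 below in all CML libraries, against 4.84% and 12.2% of all features. The unadjusted rule was met upward by 4 and downward by 1, against 2.61% and 5.94%, and none passed the adjusted p (median log2 fold change 0.02). Fosl2, an AP-1 subunit, was measured at 22.4, 24.6 and 25.0 RPKM in CML and at 4.91, 8.37 and 9.41 RPKM in naive libraries (log2 fold change 1.58, adjusted p = 0.161, limma), and Tbx21 (T-bet) at 19.7 ± 2.16 and 8.98 ± 3.27 RPKM (SD, n = 3, log2 fold change 1.10, adjusted p = 0.346, limma). Hif1a (0.63) and Stat3 (0.48) also lay above without overlap.

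**Figure D4:**
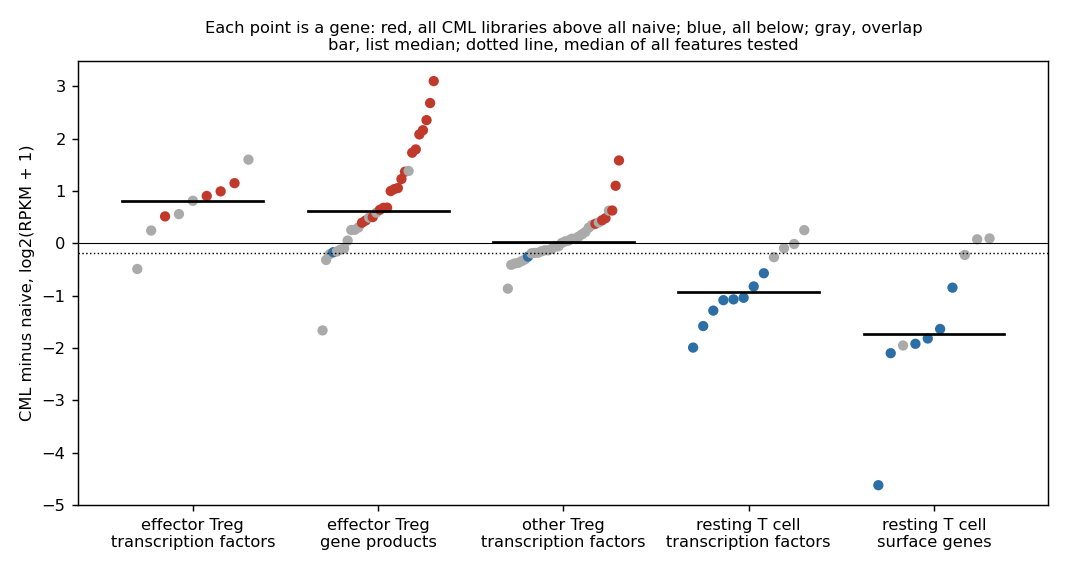
CML minus naive difference in log2(RPKM + 1) (vertical axis) of each gene in 5 lists (horizontal axis). Red points have all CML libraries above all naive libraries, blue points all below and gray points overlap, and black bars are list medians, 0.81 for the 9 members and -0.93 for the resting T cell transcription factors. The dotted line is the median of all features tested.

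The 5 features whose pattern over the 6 libraries was nearest to that of Prdm1, among 7844 features with a mean of at least 10 RPKM and by the root mean square difference of centered log2 values, were Tnfrsf1b (0.0889), Ly6a (0.101), Samsn1 (0.119), N4bp1 (0.121) and Ifngr1 (0.127). Tnfrsf1b, the TNF receptor 2 of Tregs, was measured at 221, 148 and 231 RPKM in CML and at 81.2, 80.4 and 88.2 RPKM in naive libraries. Like Prdm1, all 5 were lowest among the CML libraries in CML library 2 and had adjusted p-values from 0.0729 to 0.192 (limma). Such likeness follows from the choice by pattern over the same 6 libraries and is no separate result.

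Genes of other cells were present beside the members. The erythroid genes summed to 69.6 to 288 RPKM in CML and 34.0 to 61.5 RPKM in naive libraries, and the NK, ILC and CD8 T cell genes, led by Ccl5, to 418 to 737 and 266 to 377 RPKM, both without overlap. Ccl5 alone was measured at 302, 227 and 513 RPKM in CML and at 92.9, 104 and 136 RPKM in naive libraries. Without Ccl5 the sums of the NK, ILC and CD8 T cell genes overlap between groups. Of 8 of these genes tested, 2 (Ccl5 and Nkg7) lay above in all CML libraries, against 4.84% of all features. Tyrobp (-0.41) and Klrd1 (-0.98) had negative log2 fold changes. Neutrophil and granule genes summed to 24.1 to 255 and 37.2 to 68.7 RPKM. They were led by Mpo (means of 41.8 RPKM in CML and 11.8 RPKM in naive libraries) and S100a9 (33.9 and 14.5 RPKM). Elane lay above in all CML libraries, the only 1 of 10 tested, while Ly6g, Mmp8 and Retnlg were at 0 in all 6 libraries. Stem and progenitor genes summed to 16.1 to 31.1 and 14.8 to 16.6 RPKM, led by Lmo2 (means of 16.6 and 11.9 RPKM), with Hoxa9, Mycn and Tal1 at 0. B and plasma cell genes, nearly all Ighm, summed to 358 to 533 and 491 to 661 RPKM. Iglc2 had means of 15.2 and 12.2 RPKM and Cd79b of 3.99 and 8.15 RPKM, while Pax5, Ebf1 and Vpreb3 were at 0. Monocyte, macrophage and dendritic genes summed to 250 to 295 and 200 to 395 RPKM, led by Siglech with Fcgr1 at 0. The part of these cells in the levels of the members was not tested.

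Plasmacytoid dendritic cells express Irf8, Zeb2 and Myb among their own regulators and carry little Id2, so 11 genes typical of them (Siglech, Ccr9, Tcf4, Spib, Runx2, Klk1, Cox6a2, Pacsin1, Bcl11a, Ly6d and Lair1, chosen after their values were seen) were summed in each library. The sums were 1018, 425 and 624 RPKM in naive libraries 1 to 3 and 710, 689 and 688 RPKM in CML libraries 1 to 3. The naive libraries thus spanned the whole range while the CML libraries were close together. In the naive group 5 members (Irf4, Nfil3, Bhlhe40, Myb and Zeb2) had the order of this sum, highest in library 1 and lowest in library 2, and 3 members (Batf, Id2 and Ikzf3) had the opposite order, while of 13871 other features 2776 had the same and 2525 the opposite order. Irf8 followed it as well, at 438, 169 and 272 RPKM in naive libraries 1 to 3. Among the CML libraries, whose sums were close together, 1 of 9 members (Irf4) had the order of the sum. There 2 members (Nfil3 and Myb) had the opposite order.

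**Figure D5:**
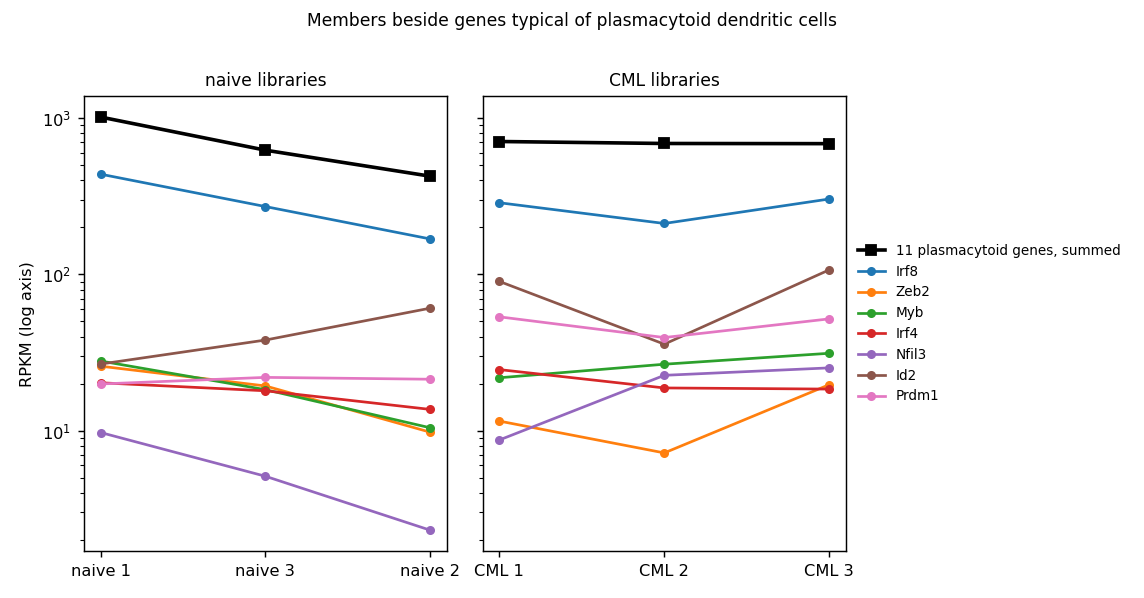
RPKM (log vertical axis) of the summed plasmacytoid genes (black squares), Irf8 and 6 members by library, with the naive libraries ordered by the sum. Lines join the values of a gene. The sum falls from 1018 to 425 RPKM from left to right in the naive panel, as Irf8, Zeb2, Myb, Irf4 and Nfil3 do, while Id2 goes the other way. Of the members not shown, Bhlhe40 falls as well, and Batf and Ikzf3 go the other way.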

How the data were processed

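RNA was measured in FACS-purified BM Tregs from 3 CML and 3 naive mice with the SMART-Seq kit, whose libraries do not keep strand, on an Illumina sequencer. The authors used SeqMan NGen for alignment and ArrayStar for expression. RPKM is the unit inferred for the deposited values, from their form and from the latter software, since no source used here names the unit: fold changes do not rest on the scaling by length, whereas levels set between genes, estimated reads and their intervals do. The submitters' processing notes name the mouse build GRCm 38 (mm 10), and the annotation version is not given in the sources used here. The values are not counts, the deposited minimum of 0.001 was read as no reads and set to 0, and 41 feature names that occur more than once were kept as separate features.

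The 36930 features were reduced to the 13923 whose values averaged 1 RPKM or more across the 6 libraries, transformed to log2(RPKM + 1), a scale that understates changes of low genes, and fitted with limma 3.58.1 (lmFit, eBayes with trend, R 4.3.3) without covariates. P-values were adjusted by the Benjamini-Hochberg method over all tested features, and the thresholds (0.05 for the adjusted p, 1.5 for the fold) follow the study. Log2 ratios of pairs were tested with the exact 2-sided permutation test over all 20 assignments (Python 3.11.15). The fit was tested on simulated data. The library sizes were not used here. Reads were estimated from the smallest recurring step of RPKM times transcript length of short RNAs; 33.5% to 65.4% of products up to 20 steps lay within 0.05 of a whole step, so the estimates are approximate, and the 95% exact Poisson intervals cover counting error only.

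Groups were taken from the sample labels. The members and gene lists were chosen with earlier results of these data known. Named were all members and their relatives, up to 4 genes per list with the largest absolute change among those without overlap, Foxp3, the 5 features nearest to Prdm1, and leading genes of the marker lists. Gene positions are those of GENCODE on GRCm38 and promoters those of RefSeq. Alternatives were other pseudocounts, filters, scalings, library weights, no variance trend, a replicate block, a plasmacytoid covariate and each library left out.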

Additional observations from a re-analysis of the deposited data

How the results depend on the processing

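The directions of the 9 members were the same in all 153 fold changes computed under 17 alternatives (16 planned), and 4 of these, all of Prdm1, passed the adjusted p. The number of members past the adjusted p, 0 as reported, was 1 under a common 75th percentile, under quantile normalization, under a common sum without the highest features and under library weights, where 0.323% to 0.381% of all features passed against 0.172%. The number past the unadjusted rule, 3 as reported, was 5 under a common 75th percentile, 6 under a common sum without the highest features and 5 under library weights, where 3.24%, 3.5% and 3.3% of all features met it against 2.61%. Leaving out each library in turn gave 2 to 5 members past the unadjusted rule (5 without CML library 2), against 1.79% to 4.86% of all features. It gave 4 to 7 members without overlap (7 without naive library 1), against 6.64% to 13.9% of all features. The median of the members ranged from 0.45 (without CML library 3) to 1.15 (without CML library 2). The causes were not tested, though fewer samples also enter these fits, and a fit without a library has 2 in that group.

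With the replicate number as a block, 0 members passed the adjusted p, against 0.00718% of all features. The unadjusted rule was met by 4 members, against 2.33% of all features higher in CML. The count without overlap (4 members, against 4.84% of all features) is read from the library values and cannot change with a block. Prdm1 had an adjusted p of 0.340 in this limma fit. Libraries of the same number did not deviate together (correlations of -0.0048, -0.0016 and -0.019 across genes), so the number is read as a name and not as a pairing. Depth limits low members most in CML library 2, where 3 reads amount to 0.685 RPKM for Prdm1.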

Other observations

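The mean log2 level of the 11 plasmacytoid genes was used as a covariate, an alternative added after the data were seen. The log2 fold change was then 1.15 for Prdm1, 1.48 for Nfil3, 0.46 for Myb and -0.60 for Zeb2. The median of the members was 0.88, and 0 members passed the adjusted p, against 0.0575% of all features. The unadjusted rule was met by 3 members, against 2.21% of all features higher in CML. Whether these transcripts came from plasmacytoid cells in the sort was not tested.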
